A study of Homo sapiens with 6 samples.

Results

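Mitochondrial ribosomal protein genes were followed through an RNA-seq comparison of T24 cells, an established human bladder cancer cell line. The genes were taken by name: every protein-coding gene whose symbol starts with MRPL or MRPS and a number. This gave 78 of the 23619 genes in the table, 49 named for the large subunit (MRPL) and 29 named for the small subunit (MRPS). The study compared 3 libraries from cells given 3.84 µM Caba-780, a near-infrared fluorescence imaging drug, for 24 h with 3 control libraries labelled as having no treatment. All 6 libraries came from T24 cells of the genotype labelled WT, so 1 cell line stands for the tumour type. Whether the controls were given a vehicle, and whether each replicate was a culture of its own, is not in the labels. Every p-value is therefore set against a between-library spread that could be technical only.

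Mitochondria make a small set of respiratory chain proteins on a ribosome of their own. Its RNAs are transcribed from the mitochondrial genome, whereas all of its proteins are encoded in the nucleus, made in the cytosol and imported. A share of these proteins descends from bacterial ribosomal proteins and the others are particular to mitochondria. The proteins are joined to these RNAs with the help of GTPases, helicases and RNA-modifying enzymes, and the finished particle works at the inner membrane.

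Levels are normalized counts, the authors' gene-level reads scaled by a size factor for each library, unless stated to be per kilobase of gene length. They are relative to the library, so a fall in RNA per cell and a change in the total RNA of a cell, or in the number of cells, cannot be told apart. Reads in genes numbered 14649171 to 15983035 in the Caba-780 libraries and 14591234 to 15785965 in the control libraries. The mitochondrial ribosomal protein genes took 0.363%, 0.329% and 0.392% of these reads in Caba-780 replicates 1 to 3, against 0.369%, 0.427% and 0.361% in control replicates 1 to 3. The cells had the keratins KRT8, KRT18 and KRT7 at 572 to 7675 normalized counts and VIM at 7571 to 18396, while the epithelial markers CDH1, TP63 and UPK2 did not pass 4.71 and EPCAM was at 0 in every library but control replicate 3 (38.3). The urothelial plaque gene UPK1B lay at 113 to 137 in the Caba-780 libraries and 165 to 224 in the control libraries, and PPARG at 64.3 to 90.5 in all. Of 16 such markers looked for, 13 had rows, and KRT5, KRT19 and UPK3A had none. Of the 6 tested, UPK1B was called lower without control replicate 3 and none was called higher. UPK1A, KRT17 and GATA3 lay between 0 and 16.7. Of 10 markers of other cell types, 3 had rows, with a summed level of 52.0 to 61.9 in the Caba-780 libraries and 0 to 18.4 in the control libraries. Most of that sum was ITGAM, an integrin chain of myeloid cells, and ALB and PECAM1 did not pass 6.87. By limma, ITGAM was called higher without control replicate 3, with a log2 change of 2.24 ± 0.39 (SE, adjusted p = 6.86e-05). With all 6 libraries it was not called (3.37 ± 1.03, SE, adjusted p = 0.196). The part of these markers in the results was not tested.

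Control replicate 3 stood apart. It had a read in 13627 genes, against 19467 to 20308 in the other libraries, and only 638 genes with 1 to 9 reads, against 5636 to 6100. Over the 78 genes its correlation with each other library was 0.836 to 0.863, against 0.963 to 0.995 for all pairs without it (Pearson, log2 scale, across genes). Of the 76 genes with enough reads for a test, 21 lay over 1 log2 unit from the mean of control replicates 1 and 2 in this library, 24 lay above both of those replicates, 45 below both and 7 between them. In it 4 genes of the group had no read (MRPL38, MRPL46, MRPS24 and MRPL23), and each of the other libraries had a read for all 78. The log2 changes of genes whose levels are listed are therefore given without control replicate 3 and with it.

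**Figure D1:**
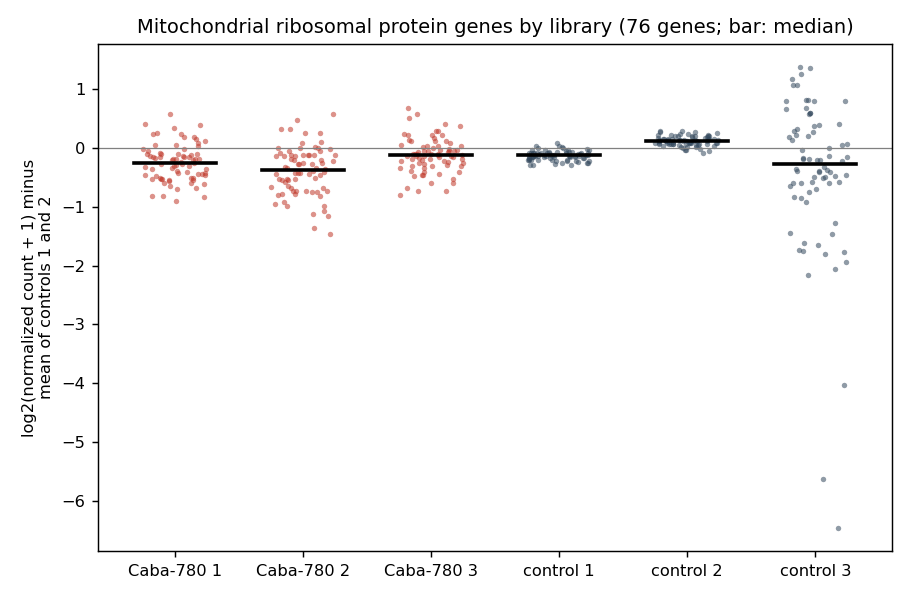
Each point is 1 of 76 mitochondrial ribosomal protein genes, plotted by library as log2(normalized count + 1) minus the mean of control replicates 1 and 2 for that gene. The bars mark medians of -0.25, -0.37 and -0.11 in Caba-780 replicates 1 to 3 and -0.12, 0.12 and -0.27 in control replicates 1 to 3, and the points of control replicate 3 spread far more widely (SD 1.34, against 0.295 to 0.413 in the Caba-780 libraries).

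The genes as a group leaned downward in the Caba-780 libraries, by an amount similar to the distance between control libraries. The median gene stood at -0.25, -0.37 and -0.11 log2 units from the mean of control replicates 1 and 2 in Caba-780 replicates 1 to 3, and at -0.12 and 0.12 in control replicates 1 and 2 themselves. Caba-780 replicate 3 thus overlapped with control replicate 1. Control replicate 2 lay above control replicate 1 for 70 of the 76 genes, Caba-780 replicate 2 was the lowest of its group for 44, and Caba-780 replicate 3 was the highest for 47.

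With all 6 libraries, limma called none of the 76 genes at an adjusted p under 0.05, where it called 0.744% of all genes tested higher and 0.26% lower. The lowest adjusted p was 0.173, for MRPS28. At an unadjusted p under 0.05 there were 10 genes, 13.2% of the group, against 17.0% of all genes tested. The quasi-likelihood test of edgeR and limma-voom also called 0. The DESeq2 test on recovered reads called 3, all lower (MRPS28, MRPS14 and MRPS27), where it called 5.26% of all genes higher and 3.57% lower. In the authors' deposited table MRPS28 alone of the group had an adjusted p-value under 0.05, at 0.047 with a log2 fold change of -1.26. The median log2 change was -0.14 over the group and 0.10 over all genes tested. The groups of libraries did not overlap for 16 genes that were lower in Caba-780, 21.1% of those tested against 13.4% of all genes, and for 4 that were higher, 5.26% against 17.9%.

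Without control replicate 3, limma called 20 of the 76 genes lower in Caba-780, 26.3% of the group, where it called 15.2% of all genes lower. It called 2 higher, MRPS30 and MRPS31, which is 2.63% of the group, where it called 17.2% of all genes higher. The call of MRPS30 was lost with neither trend nor robust moderation, with the replicate number as a block and with Caba-780 replicate 3 also left out. That of MRPS31 was lost in the same settings, and also with upper-quartile scaling, with no filter and with Caba-780 replicate 2 left out. Among the 76 genes, 62 had a log2 change below 0, 81.6% against 51.6% of all genes tested, and the median was -0.29, against -0.02 over all genes. The 20 falls were moderate, from -0.99 for MRPS28 to -0.41 for MRPL42 on the log2 scale, with adjusted p-values from 9.46e-05 to 0.0419. Of these, only MRPL28, MRPL43, MRPS28 and MRPL57 kept their call with neither trend nor robust moderation. MRPS27 and MRPL42 lost theirs with the replicate block. With library totals in place of the authors' size factors, MRPS34, MRPL52, MRPL50, MRPS22, MRPS7, MRPL44, MRPL4, MRPL27, MRPL20 and MRPL42 lost theirs. The other 54 genes ranged from -0.46 to 0.44, and 42 of them lay below 0. The groups did not overlap for 32 genes that were lower, 42.1% against 28.4% of all genes, and for 6 that were higher, 7.89% against 28%. The standard error of a gene had a median of 0.16 here and of 0.26 with 6 libraries. With control replicate 2 left out as well, the group's median was -0.13, against -0.02 over all genes. That fit sets 3 Caba-780 libraries against 1 control, so the spread comes from the Caba-780 libraries alone. The lone control is assumed to vary like them, so calls of such a fit are not given. With control replicate 1 left out in its place, also 3 against 1, the group's median was -0.42, against -0.004 over all genes.

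**Figure D2:**
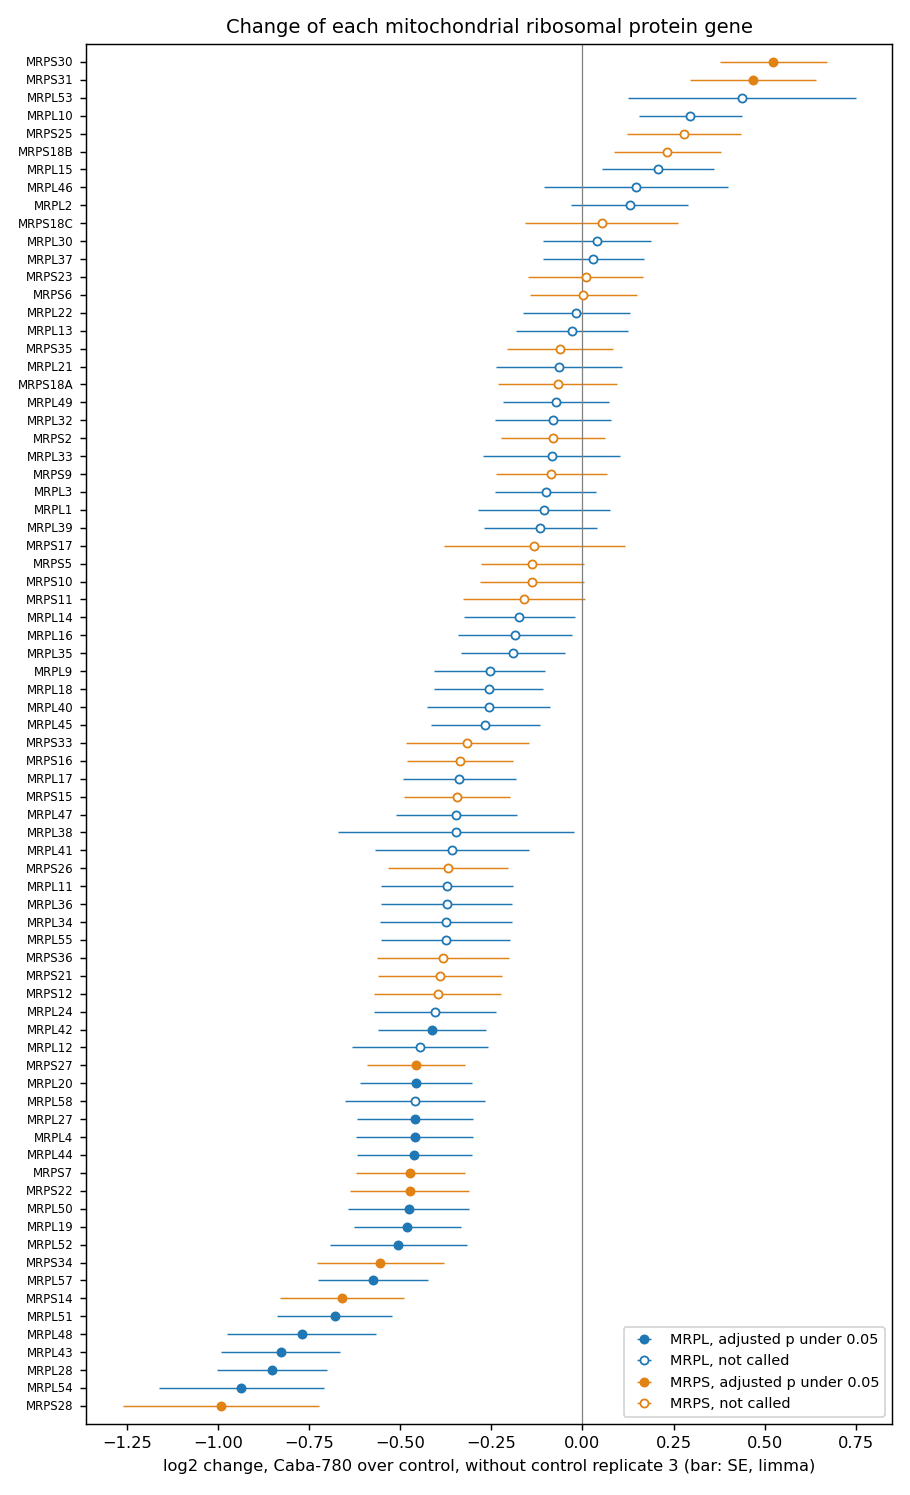
The log2 change of each of 76 mitochondrial ribosomal protein genes, Caba-780 over control without control replicate 3, is plotted from the most positive at the top to the most negative at the bottom, with its limma SE as a bar. Filled points passed an adjusted p under 0.05: MRPS30 and MRPS31 at the top, and 20 genes at the bottom from MRPL42 (-0.41) to MRPS28 (-0.99).

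The genes at both ends of this order with a promoter sequence to show were MRPL54 and MRPL28 among the falls and MRPS30 and MRPS31 as the rises. MRPL54 had normalized counts of 175, 112 and 215 in the Caba-780 libraries, against 269, 358 and 90.2 in control replicates 1 to 3. MRPL54 (chr19:3762664-3768575, GRCh38, plus strand) encodes a protein particular to mitochondria, at the base of the stalk of the large subunit. Control replicate 3 was the lowest of all 6 libraries, whereas the other 2 controls were above every Caba-780 library. Its log2 change was -0.94 ± 0.23 (SE, adjusted p = 0.0029) without control replicate 3 and -0.35 ± 0.55 (SE, adjusted p = 0.761) with it. MRPL28 had normalized counts of 773, 646 and 855 in the Caba-780 libraries, against 1276, 1451 and 326 in control replicates 1 to 3. MRPL28 (chr16:366969-371289, minus strand) encodes the counterpart of bacterial L28 in the large subunit. The same arrangement held, with control replicate 3 below all other libraries. The log2 change came to -0.85 ± 0.15 (SE, adjusted p = 9.46e-05) without control replicate 3, the lowest adjusted p of the group, and -0.17 ± 0.57 (SE, adjusted p = 0.891) with it.

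MRPS30 had normalized counts of 928, 978 and 1124 in the Caba-780 libraries, against 721, 680.1 and 1236 in control replicates 1 to 3. MRPS30 (chr5:44808925-44820428, plus strand) is named for the small subunit but its protein is found in the large one, and it is also known as PDCD9. Control replicate 3 was the highest library and the other 2 controls the lowest. The fitted log2 change was 0.52 ± 0.15 (SE, adjusted p = 0.00742) without control replicate 3 and 0.25 ± 0.27 (SE, adjusted p = 0.65) with it. MRPS31 had normalized counts of 294, 372 and 371 in the Caba-780 libraries, against 249, 247 and 218 in control replicates 1 to 3. MRPS31 (chr13:40729135-40771173, minus strand) encodes a small subunit protein particular to mitochondria. All Caba-780 libraries were above all 3 controls. On the log2 scale the change was 0.47 ± 0.17 (SE, adjusted p = 0.0379) without control replicate 3 and 0.53 ± 0.20 (SE, adjusted p = 0.256) with all libraries.

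Promoter windows from 250 bases before to 50 bases after the RefSeq start (GRCh38.p14, 300 bases) were searched on both strands for motifs known from nuclear genes of mitochondrial proteins: GCGCATGCG for NRF1, CCGGAAG for ETS factors such as GABPA, AAGATGGC for YY1, GGGCGG for SP1 and CACGTG, the E-box bound by MYC and MAX. Of the 78 genes, 69 had a window. The 4 windows below are shown because these genes moved in opposite directions without control replicate 3, and capitals mark every match to 1 of these motifs or its reverse complement.
MRPL54, chr19:3762432-3762731, plus strand: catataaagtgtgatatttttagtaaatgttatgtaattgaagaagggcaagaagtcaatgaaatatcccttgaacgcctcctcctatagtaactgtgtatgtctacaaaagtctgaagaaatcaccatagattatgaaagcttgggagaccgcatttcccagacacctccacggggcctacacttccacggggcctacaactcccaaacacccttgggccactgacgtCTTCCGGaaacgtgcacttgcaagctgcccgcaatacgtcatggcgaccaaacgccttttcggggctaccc
MRPL28, chr16:370489-370788, minus strand: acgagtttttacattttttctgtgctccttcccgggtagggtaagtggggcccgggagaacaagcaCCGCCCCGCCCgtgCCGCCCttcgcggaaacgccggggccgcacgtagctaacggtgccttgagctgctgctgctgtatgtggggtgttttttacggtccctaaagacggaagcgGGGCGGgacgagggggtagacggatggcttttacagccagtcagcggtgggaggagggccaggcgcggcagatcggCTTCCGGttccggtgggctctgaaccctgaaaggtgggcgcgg
MRPS30, chr5:44808697-44808996, plus strand: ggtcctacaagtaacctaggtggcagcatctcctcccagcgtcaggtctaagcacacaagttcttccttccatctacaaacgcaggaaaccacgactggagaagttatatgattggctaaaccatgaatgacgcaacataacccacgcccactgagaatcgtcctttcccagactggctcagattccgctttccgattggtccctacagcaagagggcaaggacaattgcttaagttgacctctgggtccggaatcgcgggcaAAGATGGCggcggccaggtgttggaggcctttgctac
MRPS31, chr13:40771141-40771440, minus strand: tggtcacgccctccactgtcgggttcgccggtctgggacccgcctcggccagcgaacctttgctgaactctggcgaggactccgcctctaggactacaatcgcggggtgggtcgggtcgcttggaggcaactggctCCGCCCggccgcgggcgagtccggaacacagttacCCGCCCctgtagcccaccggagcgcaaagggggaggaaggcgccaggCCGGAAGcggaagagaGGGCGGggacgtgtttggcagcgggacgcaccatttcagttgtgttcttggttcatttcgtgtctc
The ETS motif began 21 bases before the start of MRPL54 and 32 bases before that of MRPS31, and 8 bases after that of MRPL28. MRPS30 held the YY1 motif 14 bases after its start, and no ETS or SP1 letters in this window. SP1 letters lay at 4 places in the MRPL28 window, 2 of them overlapping, and at 3 in the MRPS31 window.

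The ETS motif stood in 42.0% of the 69 windows, against 20.1% of 9566 windows of protein-coding genes tested and 10.3% of all 35116 windows. The YY1 motif stood in 20 of the 69, against 5.55% and 2.89%. The NRF1 core was in 4.35%, against 3.96% and 1.92%. The SP1 motif was in 60.9%, against 71.7% and 45.0%, and the E-box in 8.70%, against 9.97% and 7.26%. In 67 windows of cytosolic ribosomal protein genes the ETS motif stood in 34.3%, the YY1 motif in 11.9% and the SP1 motif in 53.7%. The NRF1 core stood in 1.49% of these 67 and the E-box in 5.97%. Among the 19 genes that fell without control replicate 3 and had a window, 52.6% held the ETS motif and 36.8% the YY1 motif, against 38% and 26% of the other 50. The other motifs were less frequent among the 19, with the SP1 motif in 52.6% against 64% of the other 50, the E-box in 0 against 12% and the NRF1 core in 0 against 6%. These shares describe letters in windows and were not tested. A motif on this list does not show that its factor was bound.

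The shares that follow stand beside 15.2% of all genes called lower and 17.2% called higher without control replicate 3, and no share was tested against these. In the large subunit, of 29 genes with a bacterial counterpart 5 fell without control replicate 3 (MRPL28, MRPL19, MRPL4, MRPL27 and MRPL20), 17.2% and near the share of all genes, and none rose, with a median of -0.26. Of 21 particular to mitochondria, 9 fell (MRPL54, MRPL43, MRPL48, MRPL51, MRPL57, MRPL52, MRPL50, MRPL44 and MRPL42), 42.9%, and MRPS30 rose, with a median of -0.36. MRPL43 had normalized counts of 566, 389 and 524 in the Caba-780 libraries, against 881, 852 and 630.4 in control replicates 1 to 3. This mitochondria-specific gene (chr10:100969458-100987515, minus strand) lay lower in all Caba-780 libraries than in any control, with a log2 change of -0.83 ± 0.16 (SE, adjusted p = 2.91e-04) without control replicate 3 and -0.68 ± 0.23 (SE, adjusted p = 0.232) with it. MRPL51 had normalized counts of 1228, 969 and 1454 in the Caba-780 libraries, against 1770.3, 2092 and 1377 in control replicates 1 to 3. Its protein is also particular to mitochondria, and its Caba-780 values overlapped with control replicate 3 alone. This gave a log2 change of -0.68 ± 0.16 (SE, adjusted p = 0.00161) without that library and -0.52 ± 0.24 (SE, adjusted p = 0.336) with it. MRPL57 had normalized counts of 464, 459 and 458 in the Caba-780 libraries, against 644, 732 and 484 in control replicates 1 to 3. This gene, also particular to mitochondria, had nearly the same value in each Caba-780 library, below all controls. The log2 change stood at -0.58 ± 0.15 (SE, adjusted p = 0.00441) without control replicate 3 and -0.41 ± 0.21 (SE, adjusted p = 0.375) with it.

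The central protuberance, where the large subunit meets the small one, had 9 genes, of which MRPL48, MRPL52 and MRPL27 fell without control replicate 3, 33.3%. The call of MRPL52 was lost with library totals, TMM scaling, edgeR, DESeq2 and the GC correction, among others. MRPL48 had normalized counts of 188, 153 and 254 in the Caba-780 libraries, against 286, 385 and 390.2 in control replicates 1 to 3. All Caba-780 libraries were below all controls, and the log2 change was -0.77 ± 0.20 (SE, adjusted p = 0.00506) without control replicate 3 and -0.85 ± 0.27 (SE, adjusted p = 0.204) with it. MRPL58 had normalized counts of 181, 165 and 232 in the Caba-780 libraries, against 237, 291 and 319 in control replicates 1 to 3. MRPL58, also called ICT1, is a peptidyl-tRNA hydrolase built into the ribosome that frees stalled chains. Its libraries did not overlap, but the log2 change of -0.46 ± 0.19 (SE, adjusted p = 0.0681) without control replicate 3 did not pass the test. Its change was -0.55 ± 0.23 (SE, adjusted p = 0.297) with all libraries. MRPL38 and MRPL46 of the same region were the genes lowest per kilobase among those tested. MRPL38 had normalized counts of 43.9, 44.3 and 27.5 in the Caba-780 libraries, against 51.4, 45.3 and 0 in control replicates 1 to 3. MRPL46 had normalized counts of 99.5, 72.6 and 125 in the Caba-780 libraries, against 77.6, 97.7 and 0 in control replicates 1 to 3. No read was seen in control replicate 3 for either, where 3 reads would be 3.38 normalized counts. Without that library the log2 changes were -0.35 ± 0.32 (SE, adjusted p = 0.438) for MRPL38 and 0.15 ± 0.25 (SE, adjusted p = 0.693) for MRPL46. With it they were 1.53 ± 1.54 (SE, adjusted p = 0.628) and 2.30 ± 1.73 (SE, adjusted p = 0.533), values that depend on the pseudocount because of the 0.

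The stalk recruits translation factors, and of its 5 genes MRPL54 fell without control replicate 3, a share near that of all genes. MRPL12 had normalized counts of 409.5, 336 and 573 in the Caba-780 libraries, against 528, 647 and 35.0 in control replicates 1 to 3. MRPL12 encodes the counterpart of L7/L12 in this stalk, and its value in control replicate 3 was far below every other library. Its log2 change was -0.45 ± 0.19 (SE, adjusted p = 0.0686) without that library and 0.90 ± 1.08 (SE, adjusted p = 0.687) with it, opposite in sign. MRPL12 shares 68.2% of its exonic bases with the overlapping gene AC139530.2 on the same strand, so its reads could be split between them. MRPL10 had normalized counts of 1299, 1175 and 1156 in the Caba-780 libraries, against 964, 1004 and 654 in control replicates 1 to 3. MRPL10 anchors the stalk, and all its Caba-780 values lay above all controls. The log2 change came to 0.30 ± 0.14 (SE, adjusted p = 0.11) without control replicate 3 and 0.49 ± 0.22 (SE, adjusted p = 0.32) with it. MRPL53 had normalized counts of 54.7, 45.3 and 48.1 in the Caba-780 libraries, against 30.1, 43.2 and 12.4 in control replicates 1 to 3. MRPL53 is a stalk protein of mitochondria, low in reads here, and its groups also did not overlap. The fitted log2 change was 0.44 ± 0.31 (SE, adjusted p = 0.299) without control replicate 3 and 0.93 ± 0.52 (SE, adjusted p = 0.415) with it. Of its exonic bases 45.2% are shared with CCDC142.

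At the exit of the peptide tunnel, 1 of 6 genes tested fell without control replicate 3, MRPL44, also near the share of all genes. MRPL45 had normalized counts of 743, 749 and 864 in the Caba-780 libraries, against 854, 1040.2 and 1256 in control replicates 1 to 3. MRPL45 holds the ribosome at the inner membrane, and its log2 change was -0.27 ± 0.15 (SE, adjusted p = 0.177) without control replicate 3 and -0.40 ± 0.20 (SE, adjusted p = 0.367) with it. MRPL14 had normalized counts of 1115, 878 and 1217 in the Caba-780 libraries, against 1144, 1250.1 and 1062 in control replicates 1 to 3. MRPL14, a counterpart of bacterial L14 at the face toward the small subunit, overlapped between the groups, with a log2 change of -0.17 ± 0.15 (SE, adjusted p = 0.407) without control replicate 3 and -0.12 ± 0.19 (SE, adjusted p = 0.768) with it. MRPL37 had normalized counts of 2944, 2428 and 2763 in the Caba-780 libraries, against 2442, 2869.5 and 2418 in control replicates 1 to 3. MRPL37, particular to mitochondria, overlapped as well, with a log2 change of 0.03 ± 0.14 (SE, adjusted p = 0.89) without control replicate 3 and 0.07 ± 0.17 (SE, adjusted p = 0.83) with it.

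In the small subunit, 3 of 15 genes with a bacterial counterpart fell without control replicate 3 (MRPS28, MRPS14 and MRPS7), 20% of them, with a median of -0.16. Of 10 particular to mitochondria, 3 fell (MRPS34, MRPS22 and MRPS27), 30%, and MRPS31 rose, with a median of -0.19. MRPS28 had normalized counts of 61.8, 44.3 and 69.7 in the Caba-780 libraries, against 94.1, 142 and 186 in control replicates 1 to 3. MRPS28 (chr8:79918717-80030289, minus strand) encodes the counterpart of bacterial S1, and its Caba-780 values were all below all controls. Its log2 change of -0.99 ± 0.27 (SE, adjusted p = 0.00602) without control replicate 3 was the most negative of the group, and with all libraries it was -1.22 ± 0.34 (SE, adjusted p = 0.173). MRPS28 shares 35.8% of its exonic bases with AC036214.3. MRPS14 had normalized counts of 353, 322 and 406 in the Caba-780 libraries, against 477, 674 and 659 in control replicates 1 to 3. MRPS14 encodes the counterpart of bacterial S14 in the head of the small subunit, again with no overlap. On the log2 scale the change was -0.66 ± 0.17 (SE, adjusted p = 0.00412) without control replicate 3 and -0.73 ± 0.22 (SE, adjusted p = 0.185) with it. MRPS34 had normalized counts of 1050.3, 715 and 1177 in the Caba-780 libraries, against 1287, 1546 and 425 in control replicates 1 to 3. MRPS34, particular to mitochondria, had control replicate 3 as its lowest library. This gave a log2 change of -0.56 ± 0.17 (SE, adjusted p = 0.0177) without that library and 0.02 ± 0.51 (SE, adjusted p = 0.987) with it.

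MRPS12 had normalized counts of 565, 431 and 674 in the Caba-780 libraries, against 636, 819 and 476 in control replicates 1 to 3. MRPS12 encodes the counterpart of bacterial S12, which takes part in decoding, and its groups overlapped. The log2 change stood at -0.40 ± 0.17 (SE, adjusted p = 0.0812) without control replicate 3 and -0.20 ± 0.28 (SE, adjusted p = 0.729) with it. MRPS25 had normalized counts of 473, 446 and 434 in the Caba-780 libraries, against 372, 370.4 and 320.3 in control replicates 1 to 3. All Caba-780 values of MRPS25, a small subunit gene particular to mitochondria, were above all controls. Its log2 change was 0.28 ± 0.16 (SE, adjusted p = 0.175) without control replicate 3 and 0.35 ± 0.17 (SE, adjusted p = 0.363) with it. The 3 paralogs MRPS18A, MRPS18B and MRPS18C share the counterpart of bacterial S18, of which MRPS18A is found in the large subunit. MRPS18A had normalized counts of 429, 352 and 375 in the Caba-780 libraries, against 366, 443 and 315 in control replicates 1 to 3. MRPS18B had normalized counts of 839, 889 and 783 in the Caba-780 libraries, against 668, 757 and 871 in control replicates 1 to 3. MRPS18C had normalized counts of 197, 132 and 194 in the Caba-780 libraries, against 150.4, 182 and 429 in control replicates 1 to 3. Control replicate 3 stood far above the rest for MRPS18C, and with all 6 libraries the groups overlapped for all 3 genes. Without control replicate 3 the Caba-780 values of MRPS18B were above both controls. The log2 changes without control replicate 3 were -0.07 ± 0.16 (SE, adjusted p = 0.785) for MRPS18A, 0.23 ± 0.15 (SE, adjusted p = 0.233) for MRPS18B and 0.05 ± 0.21 (SE, adjusted p = 0.873) for MRPS18C. With all libraries they were 0.05 ± 0.21 (SE, adjusted p = 0.91) for MRPS18A, 0.14 ± 0.18 (SE, adjusted p = 0.711) for MRPS18B and -0.40 ± 0.43 (SE, adjusted p = 0.649) for MRPS18C. MRPS36 had normalized counts of 328, 335 and 268 in the Caba-780 libraries, against 329, 493 and 504 in control replicates 1 to 3. MRPS36 carries a ribosomal name, but its protein is found with the oxoglutarate dehydrogenase complex. The log2 change came to -0.38 ± 0.18 (SE, adjusted p = 0.109) without control replicate 3 and -0.49 ± 0.24 (SE, adjusted p = 0.358) with it.

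**Figure D3:**
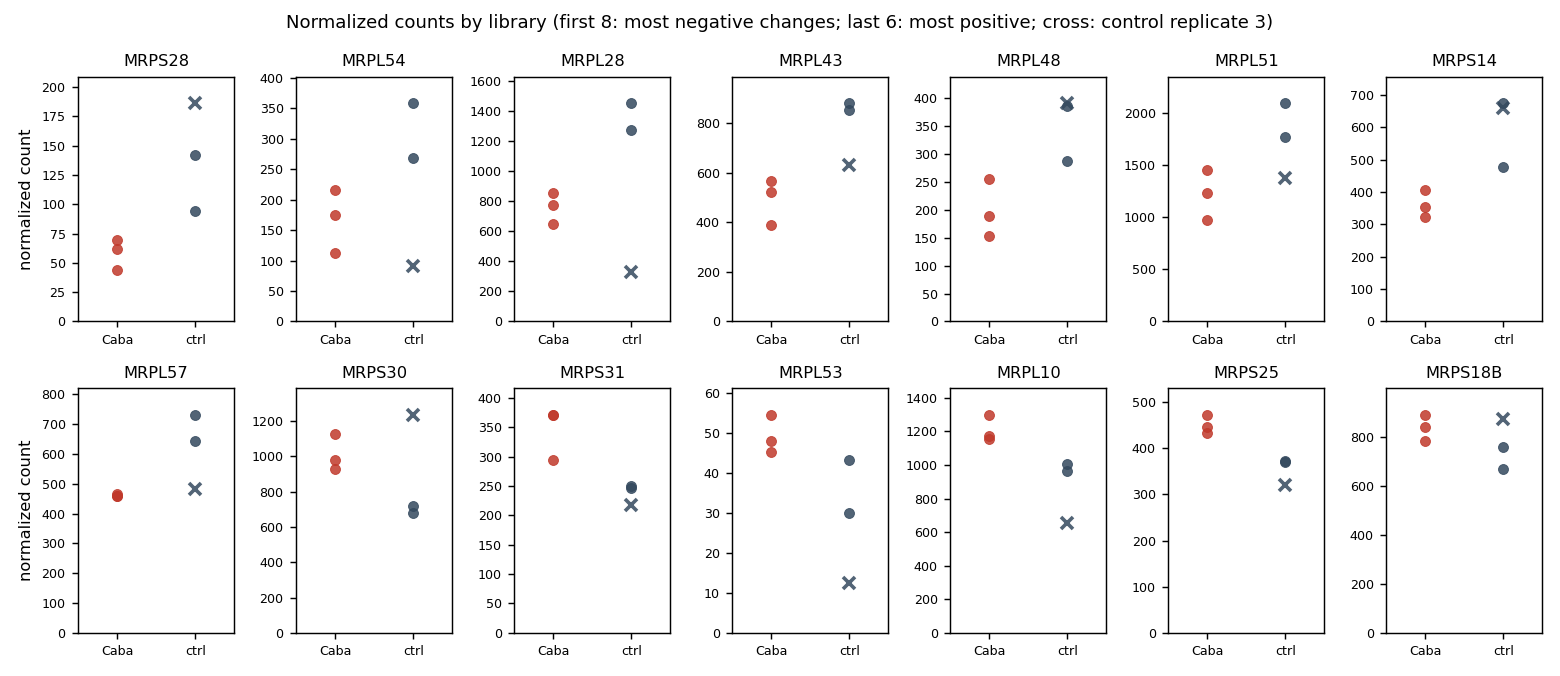
Normalized counts of 14 genes are shown by library, Caba-780 at the left and control at the right of each panel, with control replicate 3 as a cross and each axis from 0. In the first 8 panels, from MRPS28 to MRPL57, all Caba-780 points lie below control replicates 1 and 2; in the last 6, from MRPS30 to MRPS18B, they lie above these replicates.

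Split by name alone, 14 of 48 MRPL genes fell (29.2%) and none rose without control replicate 3, with a median of -0.34, while 6 of 28 MRPS genes fell (21.4%) and 2 rose, with a median of -0.15. Whether these shares differ was not tested. Of the 20 genes that fell, 11 had no overlap between the groups with all 6 libraries. In 7 of the 20, control replicate 3 was below every Caba-780 library. These genes were picked by their fall over the other 5 libraries, so the counts describe only where control replicate 3 lay. The same share among all genes that fell is not given here. With 6 libraries limma called no gene of any of these classes, 4 MRPL and 6 MRPS genes having an unadjusted p under 0.05.

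There were 2 genes with too few reads to test. MRPL23, a protein of the tunnel exit, had 0 to 1.79 normalized counts in each library. MRPS24 had normalized counts of 8.07, 5.66 and 15.7 in the Caba-780 libraries, against 2.91, 4.12 and 0 in control replicates 1 to 3. MRPS24 shares 23.2% of its exonic bases with the readthrough gene URGCP-MRPS24.

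Levels per kilobase of gene length differed by about 2 orders of magnitude between the genes tested, as means over the 5 libraries other than control replicate 3. The median was 247 normalized counts per kilobase, against 86.5 over all genes tested and 2092 over 83 cytosolic ribosomal protein genes. MRPL14 (1169), MRPL37 (1055) and MRPS34 (1053) were highest per kilobase, and MRPL38 (11.6), MRPL46 (14.7) and MRPL53 (32.9) lowest. The proteins are present in nearly equal number in the particle, whereas these levels use gene lengths that join all annotated exons. Across the 76 genes the log2 change without control replicate 3 had a Pearson correlation of -0.07 with the level per kilobase and 0.13 with gene length, as a description across genes measured in the same libraries.

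GC content moved with the libraries. Across the 76 genes the deviation from control replicates 1 and 2 had a Pearson correlation with GC content of the longest transcript of 0.02, -0.41 and -0.21 in Caba-780 replicates 1 to 3, and -0.50 in control replicate 3. Across all genes tested with a GC value these were 0.05, -0.27 and -0.02 in the Caba-780 libraries, and -0.56 in control replicate 3. After each library was corrected for this trend, limma called 4 genes of the group lower with all 6 libraries (MRPL43, MRPL28, MRPL19 and MRPL42) and none higher, where it called 3.28% of all genes lower and 4.82% higher. Without control replicate 3, the group's median log2 change after this GC correction was -0.22, against -0.02 over all genes tested. Beyond this correction, the part of GC content in the results was not tested. The changes also varied with gene length. The group had a median length of 2502 bases, against 4850 over all genes tested. Genes between 1 and 2 kilobases long had a median log2 change without control replicate 3 of -0.36 over 29 of the group and of -0.23 over all 1139. After a correction for length, the group's median without control replicate 3 was -0.15, against -0.02 over all genes. After this correction 18 genes of the group were lower and 5 higher without control replicate 3, where 16.3% of all genes were lower and 18.1% higher. The 5 were MRPS31, MRPS30, MRPL15, MRPS18B and MRPL10. With library totals in place of the authors' size factors, 10 genes of the group were lower and 3 higher (MRPL10, MRPS31 and MRPS30) without control replicate 3, where 9.7% of all genes were lower and 21.5% higher.

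**Figure D4:**
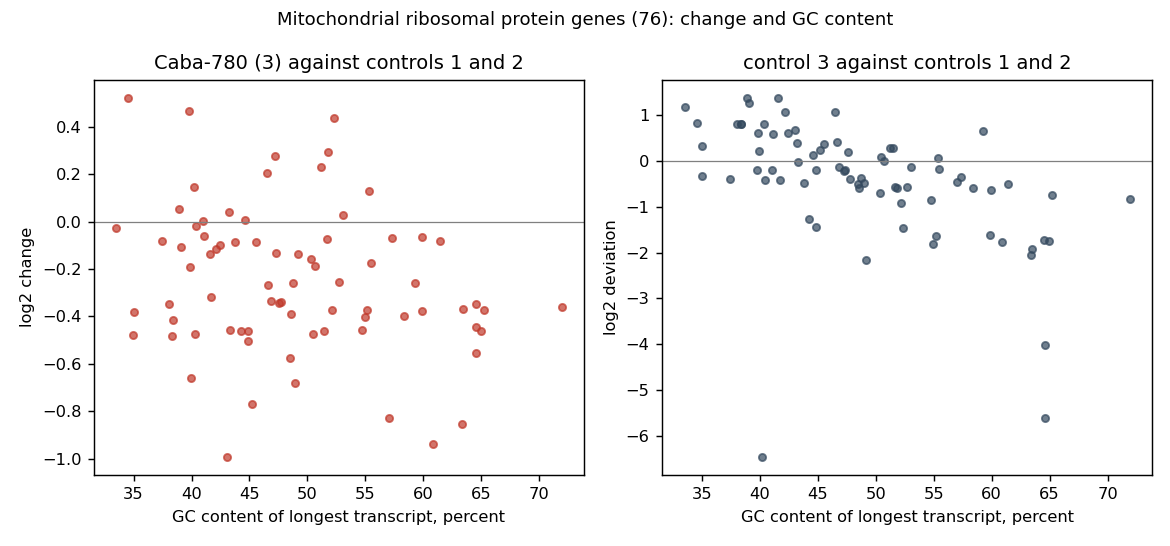
Each point is 1 of 76 mitochondrial ribosomal protein genes by GC content of its longest transcript, with the log2 change of the 3 Caba-780 libraries against control replicates 1 and 2 at the left and the log2 deviation of control replicate 3 from these controls at the right. The slope is downward in both, with a Pearson r of -0.25 at the left and -0.50 at the right, and the vertical range is wider at the right.

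The RNAs of the same ribosome rose without control replicate 3. MT-RNR1, the RNA of the small subunit, had normalized counts of 6052, 7422 and 5329 in the Caba-780 libraries, against 2223, 2243 and 4917 in control replicates 1 to 3. MT-RNR2, the RNA of the large subunit, had 57212, 71759 and 53908 in the Caba-780 libraries, against 14800, 15705 and 55891 in control replicates 1 to 3. Control replicate 3 thus lay with the Caba-780 libraries for MT-RNR2 and just below them for MT-RNR1. The log2 changes without control replicate 3 were 1.47 ± 0.14 for MT-RNR1 (SE, adjusted p = 6.55e-09 by limma) and 1.99 ± 0.14 for MT-RNR2 (SE, adjusted p = 2.57e-11). With all libraries they were 1.10 ± 0.34 (SE, adjusted p = 0.206) and 1.36 ± 0.52 (SE, adjusted p = 0.26). How much of an rRNA is left in a library depends on how it was removed or selected, which the labels do not state, and its part in these values was not tested.

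Of 203 genes on 9 further lists, 83 are cytosolic ribosomal protein genes and the other 120 are mitochondrial or regulate such genes. None was called with 6 libraries by limma or edgeR. At an unadjusted p under 0.05 by limma there were 23 of the 120 (19.2%) and 21 of the 83 (25.3%), against 17.0% of all genes tested. Counts below are without control replicate 3, where 17.2% of all genes were called higher and 15.2% lower, and no list was tested against these shares. Of 5 ribosome subunits with other names, 3 fell without control replicate 3 (AURKAIP1, GADD45GIP1 and CHCHD1), 60%, and DAP3 rose, 20%. CHCHD1 had normalized counts of 429, 371 and 497 in the Caba-780 libraries, against 540.3, 676 and 468 in control replicates 1 to 3. CHCHD1, a small subunit protein particular to mitochondria, had a log2 change of -0.49 ± 0.16 (SE, adjusted p = 0.0225) without control replicate 3 and -0.37 ± 0.22 (SE, adjusted p = 0.443) with it. AURKAIP1 had normalized counts of 1388, 968 and 1781 in the Caba-780 libraries, against 1821, 2164 and 369 in control replicates 1 to 3. AURKAIP1, also of the small subunit, had a log2 change of -0.57 ± 0.19 (SE, adjusted p = 0.0307) without control replicate 3, the library in which it was lowest, and 0.24 ± 0.68 (SE, adjusted p = 0.869) with it.

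Of 24 assembly factors, 6 rose without control replicate 3 (MRM3, MTG2, MTERF3, MRM1, FASTKD2 and GTPBP10), 25%, and 2 fell (TRUB2 and RPUSD4), 8.33%. MTERF3 had normalized counts of 479, 568 and 531 in the Caba-780 libraries, against 265, 338 and 572 in control replicates 1 to 3. MTERF3, which acts in assembly of the large subunit, had a log2 change of 0.81 ± 0.16 (SE, adjusted p = 4.13e-04) without control replicate 3 and 0.50 ± 0.31 (SE, adjusted p = 0.458) with it. GTPBP10 had normalized counts of 441, 497 and 471 in the Caba-780 libraries, against 285, 304 and 882 in control replicates 1 to 3. The GTPase GTPBP10 had a log2 change of 0.67 ± 0.16 (SE, adjusted p = 0.00189) without control replicate 3, the library in which it was highest, and 0.14 ± 0.45 (SE, adjusted p = 0.879) with it.

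Of 17 translation factors, 3 rose without control replicate 3 (C12orf65, MTRF1L and LRPPRC) and 2 fell, the elongation factor TUFM and its exchange factor TSFM. These shares of 17.6% and 11.8% are near those of all genes. TUFM had normalized counts of 2906, 2489 and 3106 in the Caba-780 libraries, against 3796, 4129 and 2208 in control replicates 1 to 3. TUFM had a log2 change of -0.49 ± 0.14 (SE, adjusted p = 0.00765) without control replicate 3 and -0.21 ± 0.27 (SE, adjusted p = 0.707) with it. LRPPRC had normalized counts of 2721, 3426 and 3147 in the Caba-780 libraries, against 2322, 2328 and 5112 in control replicates 1 to 3. LRPPRC, which binds mitochondrial mRNAs, had a log2 change of 0.41 ± 0.14 (SE, adjusted p = 0.0241) without control replicate 3 and 0.03 ± 0.34 (SE, adjusted p = 0.973) with it. Of 20 genes for mitochondrial tRNA synthetases and the amidotransferase, 5 fell without control replicate 3 (25%), IARS2 among them, and FARS2 rose (5%). IARS2 had normalized counts of 3025, 3254 and 3120.1 in the Caba-780 libraries, against 4886, 4582 and 8095 in control replicates 1 to 3. IARS2, the isoleucyl-tRNA synthetase, was lower in all Caba-780 libraries than in any control and had a log2 change of -0.60 ± 0.13 (SE, adjusted p = 9.82e-04) without control replicate 3 and -0.85 ± 0.25 (SE, adjusted p = 0.179) with it.

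Of 10 genes that transcribe and copy the mitochondrial genome, 3 rose without control replicate 3 (TWNK, POLG and MGME1), 30%, and POLRMT fell, 10%. TWNK had normalized counts of 508, 479.9 and 475 in the Caba-780 libraries, against 367, 276 and 261 in control replicates 1 to 3. TWNK, the replicative helicase, had a log2 change of 0.61 ± 0.16 (SE, adjusted p = 0.00509) without control replicate 3 and 0.71 ± 0.20 (SE, adjusted p = 0.175) with it. POLRMT had normalized counts of 1244, 957 and 1337 in the Caba-780 libraries, against 1747, 1694 and 603 in control replicates 1 to 3. POLRMT, the RNA polymerase of mitochondria, had a log2 change of -0.56 ± 0.15 (SE, adjusted p = 0.00561) without control replicate 3, the library in which it was lowest, and -0.06 ± 0.44 (SE, adjusted p = 0.956) with it. Of 13 protein-coding transcripts of the mitochondrial genome, MT-ND6 rose and MT-CO1 fell without control replicate 3, 7.69% each. MT-ND6 had normalized counts of 4010.3, 5755 and 3096 in the Caba-780 libraries, against 2455, 2096 and 7284 in control replicates 1 to 3. MT-CO1 had normalized counts of 54672, 77413 and 36993 in the Caba-780 libraries, against 105481, 92239 and 193089 in control replicates 1 to 3. Their log2 changes without control replicate 3 were 0.87 ± 0.19 (SE, adjusted p = 0.00286) for MT-ND6 and -0.87 ± 0.25 (SE, adjusted p = 0.0231) for MT-CO1. With all libraries they were 0.31 ± 0.51 (SE, adjusted p = 0.767) for MT-ND6 and -1.19 ± 0.38 (SE, adjusted p = 0.206) for MT-CO1.

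Of 10 transcription factors and coactivators known for promoters of mitochondrial proteins, GABPB1 rose without control replicate 3 (10%) and MYC and NRF1 fell (20%). MYC had normalized counts of 2129, 1805 and 1847 in the Caba-780 libraries, against 5063, 5523 and 2709 in control replicates 1 to 3. The log2 change of MYC was -1.46 ± 0.14 (SE, adjusted p = 2.85e-09) without control replicate 3 and -1.14 ± 0.30 (SE, adjusted p = 0.148) with it. GABPB1 had normalized counts of 463, 660.0 and 575 in the Caba-780 libraries, against 293, 348 and 458 in control replicates 1 to 3. GABPB1, the partner of the ETS factor GABPA, had a log2 change of 0.81 ± 0.17 (SE, adjusted p = 5.46e-04) without control replicate 3 and 0.64 ± 0.25 (SE, adjusted p = 0.266) with it.

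Of 21 other mitochondrial proteins, 6 fell without control replicate 3 (HSPE1, TOMM22, CLPP, PHB, PHB2 and VDAC1), 28.6%, and 2 rose (IDH3A and TIMM44), 9.52%. TOMM22 had normalized counts of 733, 718 and 887 in the Caba-780 libraries, against 1085, 1245 and 1557 in control replicates 1 to 3. TOMM22, a receptor of the outer membrane import complex, had a log2 change of -0.58 ± 0.15 (SE, adjusted p = 0.00375) without control replicate 3 and -0.72 ± 0.21 (SE, adjusted p = 0.173) with it. IDH3A had normalized counts of 587, 554 and 680.4 in the Caba-780 libraries, against 368, 398 and 344 in control replicates 1 to 3. IDH3A, an enzyme subunit of the citric acid cycle, had a log2 change of 0.66 ± 0.16 (SE, adjusted p = 0.00182) without control replicate 3 and 0.71 ± 0.18 (SE, adjusted p = 0.137) with it. Of 83 cytosolic ribosomal protein genes, 52 fell without control replicate 3 (62.7%) and RPL22L1 rose. The median log2 change was -0.29 in the mitochondrial group, against -0.45 in the cytosolic one and -0.02 over all genes tested. RPS15 had normalized counts of 7599, 5825 and 8089.7 in the Caba-780 libraries, against 10475, 12869 and 9989.9 in control replicates 1 to 3. RPS15, of the small cytosolic subunit, had a log2 change of -0.71 ± 0.15 (SE, adjusted p = 6.28e-04) without control replicate 3 and -0.64 ± 0.19 (SE, adjusted p = 0.195) with it.

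**Figure D5:**
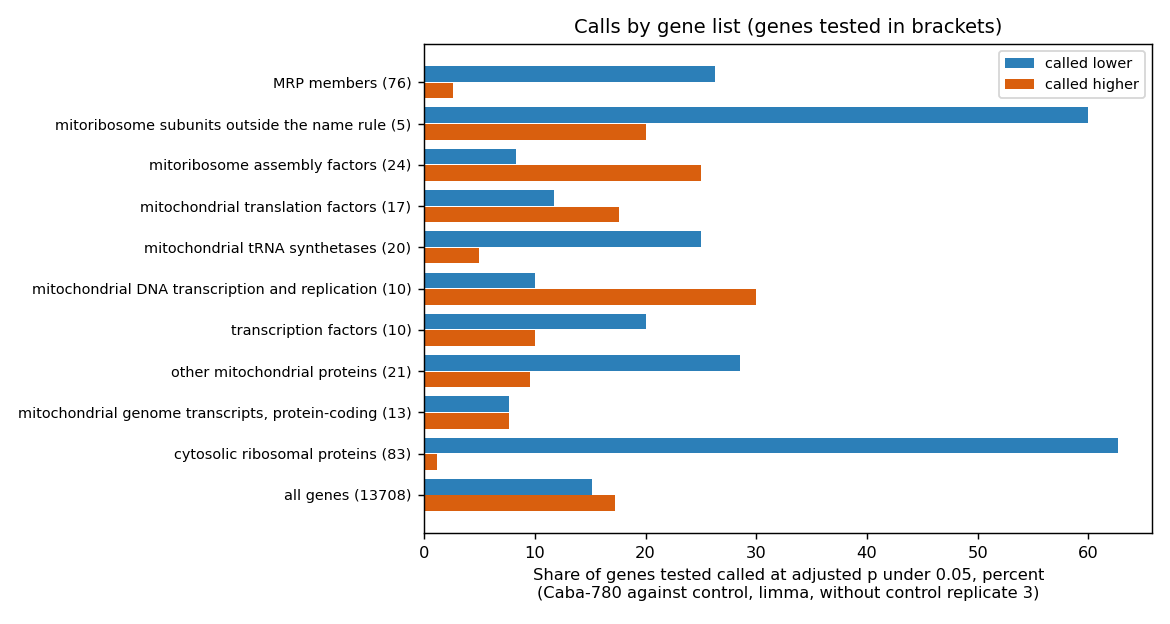
The bars give the percent of genes tested on each list that limma called lower or higher in Caba-780 at an adjusted p under 0.05 without control replicate 3, with all genes tested at the bottom. Lower calls made up 26.3% of mitochondrial ribosomal protein genes and 62.7% of cytosolic ones, against 15.2% of all genes, and higher calls 2.63% of the mitochondrial group against 17.2% of all genes.

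Some of these genes start near the start of a gene on the other strand. Of the 78, 21 had a coding neighbour head to head with its start from 300 bases inside to 1000 bases away, and 20 had both changes measured. Without control replicate 3 the ribosomal gene was below 0 and the neighbour above 0 in 10 pairs, both were below 0 in 6, the ribosomal gene was above and the neighbour below in 2, and both were above in 2. Neighbours were called higher in 7 of the 20 pairs and lower in 2 (FAU and NDUFS6), where 17.2% of all genes were called higher and 15.2% lower. The neighbours' shares were not tested against these. MRPS11 and MRPL46 are each other's neighbour, so they count as 2 of the pairs. MRPL43 fell and its neighbour TWNK, whose values are given above, rose. MRPL57 fell, with a log2 change of -0.58, and SKA3, a kinetochore gene, rose by 0.44 on the log2 scale (adjusted p = 0.035 by limma). MRPL54 fell, with a log2 change of -0.94, and APBA3 rose by 0.94 (adjusted p = 0.000167 by limma). The starts of MRPL54 and APBA3 lie 965 bases apart, near the edge of this window, against 43 bases for MRPL57 and SKA3. Of the 78 genes, 37 share no exonic base with another gene on either strand, and 14 share over 20%, where reads could be split or counted on the wrong partner if strand was not used. Among the genes named here, the share was 47.0% for MRPS18A, 41.1% for MRPL38, 40.2% for MRPS18C and 36.9% for MRPL43. It was 31.3% for MRPL51, 22.2% for MRPS25 and 21.4% for MRPL4, beside MRPL12, MRPL53, MRPS28 and MRPS24.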

How the data were processed

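Total RNA of T24 cells was sequenced after library preparation with the NEBNext Ultra RNA kit, per the labels' protocols. The submitters' processing notes name the hg38 build, the aligner HISAT2 2.0.5 after fastp, the counter featureCounts 1.5.0-p3, and for the comparison DESeq2 1.20.0. How strand and rRNA were handled, and with which annotation release, is not given in the sources used here. Library columns of the deposited table hold a signal, whole reads scaled by a size factor of each library, and 100% of values came out as whole reads at a tolerance of 1e-06. The authors' own comparison is in the deposited table as a log2 fold change with a p-value, raw and adjusted, beside the gene length in bases. Start and end of all 23619 rows equalled those of GENCODE v29 on GRCh38.

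The test was limma 3.58.1 in R 4.3.3 on log2(normalized count + 1), with the trend and robust options, over genes that reached 10 normalized counts in 3 or more libraries (13847 with 6 libraries, 13708 without control replicate 3). It was two-sided, and a call needed an adjusted p (Benjamini-Hochberg, over all genes) under 0.05. On this scale the pseudocount shrinks changes of low genes. The recovered reads went through 3 count tests, limma-voom, edgeR 4.0.16 and DESeq2 1.42.0. Without control replicate 3, edgeR called 2395 genes higher and 2042 lower. Alternatives changed the scaling, filter, pseudocount, moderation, test, threshold, length trend, replicate block and each library in turn, and a GC correction was added after the data were seen. The main fit and some of the alternatives were tested on simulated data. All simulated libraries had the same spread, so the traits that set control replicate 3 apart were not part of that test. A floor of 3 reads allows for counting error alone, since copies made by PCR are not separate molecules.

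The genes, lists and rules were chosen with earlier results of these data known. Named genes were the 8 most negative and 6 most positive changes without control replicate 3, the 3 highest and 3 lowest per kilobase, 9 chosen by role, and the 2 with the lowest p in each other list. Others were named after their values were seen. Results of some single genes under this rule are not reported here. All pairs of libraries differed by more than sampling noise. Promoters are from RefSeq (GRCh38.p14).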

Additional observations from a re-analysis of the deposited data

How the results depend on the processing

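With all 6 libraries, the count of mitochondrial ribosomal protein genes called was 0 under the main setting and under every alternative run except DESeq2 (3), the GC correction (4) and leaving out control replicate 3 (22); over single libraries left out it ranged from 0 to 22. Without control replicate 3 the count of 22 became 13 with library totals, where 9.7% of all genes were lower and 21.5% higher. It became 4 with neither trend nor robust moderation and 9 at an adjusted p under 0.01. With 1 Caba-780 library more left out it was 27 at most. For these settings other than library totals, and for the replicate block below, the share of all genes called is not given here. From the counts given here alone, a general loss or gain of calls can therefore not be told from a change in this group. With 1 more library of either group left out, the group's median change ranged from -0.42 to -0.13, against -0.02 to -0.004 over all genes. Deviations from group means over all 6 libraries correlated at 0.30, -0.33 and -0.10 between libraries of the same replicate number. Control replicates 1 and 2 gave values of the same sign with each Caba-780 library, and control replicate 3 the opposite sign. Control replicate 3 thus set these values, so they cannot show whether replicate numbers pair the libraries. With the replicate block 25 genes were called without control replicate 3, all lower, with the calls of MRPS30 and MRPS31 lost. With control replicate 3 kept, the block gave 0. The pathway lists, each at 0 with 6 libraries, gave 4 (other subunits), 8 (assembly), 5 (translation factors), 6 (tRNA synthetases), 4 (transcription and replication), 3 (transcription factors), 8 (other proteins), 53 (cytosolic ribosome) and 2 (mitochondrial transcripts) without control replicate 3. Of the named genes' recomputed changes, 24 reversed sign with 6 libraries and 16 without control replicate 3. With 6 libraries the reversed values were 0.014 for MRPL14 with library totals; -0.082, -0.053 and -0.029 for MRPS34, MRPS18A and MRPL37 with upper-quartile scaling; -0.13 and -0.15 for MRPS34 with edgeR and DESeq2; -0.060, -0.036 and -0.029 for MRPS34, MRPS18A and MRPL37 with the length correction; and -0.48, -0.22 and -0.073 for the same genes with the GC correction. Without control replicate 3 they were 0.030 for MRPS18A with library totals and -0.011 for MRPL37 with upper-quartile scaling. They were 0.062 and 0.14 for MRPL14 and MRPS18A with the length correction, 0.014 and -0.025 for MRPS18A and MRPS18C with the GC correction, and -0.036 and -0.035 for MRPS18C and MRPL46 with the replicate block. Over single libraries left out of the 6, values ranged from -0.45 to 1.64 for MRPL12, -0.22 to 0.019 for MRPL14, -0.85 to 0.22 for MRPL28, -0.35 to 2.51 for MRPL38, -0.94 to 0.052 for MRPL54, -0.068 to 0.18 for MRPS18A, -0.70 to 0.053 for MRPS18C and -0.56 to 0.37 for MRPS34. Over single libraries left out of the other 5, they ranged from -0.086 to 0.15 for MRPL37, -0.035 to 0.35 for MRPL46, -0.21 to 0.070 for MRPS18A and -0.085 to 0.24 for MRPS18C. The cause was not tested. The genes tested with the widest SE without control replicate 3 were MRPL38, MRPL53, MRPS28 and MRPL46 (0.32, 0.31, 0.27 and 0.25), all low in reads, and 2 genes could not be tested. With 6 libraries the median change over all genes was 0.22 when library totals set the scale and -0.01 under upper-quartile scaling, against 0.10 with the authors' size factors, and the group's median was -0.01, -0.24 and -0.14 on these scales.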

Other observations

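Outside the group, 11 rows carry an MRP gene's name without being protein-coding, 10 pseudogenes and the antisense gene MRPS30-DT. Processed pseudogenes held at most 6 reads in any library. The transcribed pseudogene MRPL45P2 had normalized counts of 25.1, 40.5 and 38.3 in the Caba-780 libraries, against 17.5, 25.7 and 0 in control replicates 1 to 3. MRPS31P4 had 12.5, 21.7 and 18.7 in the Caba-780 libraries, against 17.5, 16.5 and 0 in control replicates 1 to 3. MRPS31P5 had 11.6, 13.2 and 18.7 in the Caba-780 libraries, against 9.70, 3.09 and 28.2 in control replicates 1 to 3. MRPS30-DT, which starts upstream of MRPS30 on the other strand, had 23.3, 11.3 and 14.7 in the Caba-780 libraries, against 18.4, 11.3 and 27.1 in control replicates 1 to 3. How reads of MRPS31 and its copies were divided is not known here. These values were not tested.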
